A study of Mus musculus with 14 samples.

Results

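The 8 genes described here encode the G1 cyclins Ccnd1, Ccnd2, Ccnd3, Ccne1 and Ccne2 and the kinases Cdk4, Cdk6 and Cdk2 that they activate. They were taken by gene symbol, with every probe set of each symbol, which gave 8 of 18194 genes and 24 of 45101 probe sets on an Affymetrix mouse array. All 8 genes and 21 of the 24 probe sets were bright enough to be tested; the other 3, of Ccnd3, Cdk6 and Cdk2, were dim on all arrays. Ccnd1 and Ccne1 lie on chromosome 7, Cdk4 and Cdk2 on chromosome 10, Ccnd2 on 6, Ccnd3 on 17, Cdk6 on 5 and Ccne2 on 4. The mouse cells were wild type (WT) or TKO, and were measured as embryonic stem cells (ESC), which divide rapidly and are undifferentiated, or as embryoid bodies (EB), the aggregates in which such cells differentiate. TKO is not spelled out in the labels and was read as loss of the 3 Rb family genes Rb1, Rbl1 and Rbl2, because the title names that family. The groups were TKO EB (5 arrays, lines 14-14-4, 2-55-2, 7-4-1, Dutch and Ta1-12), WT EB (3 arrays, lines B21, J1 and R1), TKO ESC (3 arrays, lines 7-4-1, Dutch and Ta1-12) and WT ESC (3 arrays, lines B21, J1 and R1). Each array of a group came from a different line, so p-values measure the spread between arrays of different lines. Line differences and those of single cultures or arrays cannot be told apart in it. The labels name no strain, promoter or length of EB culture.

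A cell leaves G1 and starts S phase after the retinoblastoma (Rb) family proteins have been phosphorylated. Mitogens raise the D cyclins, which bind CDK4 or CDK6 and begin this phosphorylation, and the E cyclins then activate CDK2, which extends it. The freed E2F factors switch on S phase genes, among them the E cyclins themselves. Mouse ESC are known for a short G1 phase and for E cyclin activity that changes little through the cycle.

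The Rb family genes were checked first. Rbl1, which encodes the pocket protein p107, had an intensity of 15.9, 31.7, 38.3 and 377.1 in TKO EB 14-14-4, 2-55-2, 7-4-1 and Dutch, and of 1095.9 in the array labelled TKO EB Ta1-12. WT EB B21, J1 and R1 had 586.3, 1089.6 and 493.0. In ESC it was 24.5 in TKO 7-4-1, 250.3 in TKO Dutch and 492.5 in the array labelled TKO ESC Ta1-12, against 355.6 to 693.8 in WT ESC. The Rbl1 signal of both arrays labelled Ta1-12 thus goes against a loss of this gene, and that of TKO Dutch lay between the other TKO arrays and WT. On the next brightest Rbl1 probe set, TKO EB Dutch (135.5) lay within WT EB (114.0 to 174.2). TKO ESC Dutch (88.2) lay below WT ESC (296.7 to 413.0) on it. Calls that involve TKO are therefore given with and without both arrays labelled Ta1-12, and those of the 8 genes also without the Dutch arrays, a setting chosen after seeing the data in which TKO ESC holds 1 array, assumed to vary like the other groups. Rb1 lay at 300.5 to 912.8 in TKO EB and 407.1 to 1018.4 in WT EB, so it did not separate the genotypes. In ESC it was 196.7, 607.1 and 115.9 in TKO 7-4-1, Dutch and Ta1-12, against 138.0 to 790.6 in WT ESC. The array labelled Ta1-12 had the lowest Rb1 of its stage, in EB (300.5) and in ESC (115.9), unlike its Rbl1. Rbl2, encoding p130, overlapped in EB, at 296.8 to 1098.7 in TKO and 722.8 to 1726.9 in WT, and was not lower in TKO ESC (658.5 to 843.2) than in WT ESC (411.1 to 661.3). Which part of each gene was removed, and whether these probes lie in it, could not be read from the labels.

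Cell type markers also differed among EB. The summed intensity of 6 pluripotency genes such as Pou5f1 was 30961, 8481, 7288 and 44214 in TKO EB 14-14-4, 2-55-2, 7-4-1 and Dutch. It was 4611 in the array labelled TKO EB Ta1-12, against 2749 to 3777 in WT EB. The sum was 60077 to 62559 in TKO ESC and 43523 to 62697 in WT ESC. Sox2 alone was 6558.4 in TKO EB 7-4-1, 4484.6 in the array labelled TKO EB Ta1-12 and 2377.8 to 3599.6 in WT EB. The mean log2 of the 6 genes (values under 32 raised to 32) was 12.2, 9.9, 7.94 and 12.7 in TKO EB 14-14-4, 2-55-2, 7-4-1 and Dutch. In the array labelled TKO EB Ta1-12 it was 6.28, with 2 of the 6 genes at 32 or above, against 6.33 to 6.85 in WT EB. The sum of 5 proliferation genes such as Mki67 was 30706 to 37940 in the 4 other TKO EB arrays and 11158 in the array labelled TKO EB Ta1-12, against 9151 to 20914 in WT EB. The sum of 6 blood and macrophage genes was 584 to 13713 in TKO EB and 16511 to 29816 in WT EB, without overlap. Their mean log2 did overlap, at 5.73 to 9.79 in TKO EB and 9.76 to 10.24 in WT EB. Of these genes, Lyz1 and Lyz2 did not overlap, while Ptprc, Csf1r, Hbb-bh1 and Hba-x did. In these bulk samples, fewer cells of a type and less RNA per cell cannot be told apart.

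Of the 8 genes, 5 have promoters in the RefSeq table of build GRCm38.p6, with 6 promoters in all, each running from 250 bases before to 50 bases after a transcript start. They belong to Ccnd3, Cdk4, Cdk6, Ccne1 and Cdk2. The 3 shown are those of Cdk4, which holds the most motif matches of these, and of Ccne1 and Cdk2, a cyclin called lower in EB and its kinase, which was not called. Capitals mark 2 motifs searched on both strands, the E-box CACGTG, which Myc and related factors bind, and the E2F letters TTTGGCGC, TTTCCCGC, TTTCGCGC and TTTGCCGC. No 2 matches overlap in the sequences shown.
Cdk4 (chr10:127063285-127063584, plus strand): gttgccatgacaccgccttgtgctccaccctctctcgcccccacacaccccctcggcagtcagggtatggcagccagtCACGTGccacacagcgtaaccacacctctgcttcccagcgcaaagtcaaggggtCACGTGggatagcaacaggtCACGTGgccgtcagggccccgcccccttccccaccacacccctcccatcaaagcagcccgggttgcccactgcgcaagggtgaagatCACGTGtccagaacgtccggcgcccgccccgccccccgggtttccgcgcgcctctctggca
Ccne1 (chr7:38107441-38107740, minus strand): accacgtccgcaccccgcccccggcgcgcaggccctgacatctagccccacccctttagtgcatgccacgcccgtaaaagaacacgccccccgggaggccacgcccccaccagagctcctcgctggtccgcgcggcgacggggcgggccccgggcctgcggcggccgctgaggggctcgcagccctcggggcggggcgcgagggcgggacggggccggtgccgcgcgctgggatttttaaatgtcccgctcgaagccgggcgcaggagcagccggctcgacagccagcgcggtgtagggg
Cdk2 (chr10:128705002-128705301, minus strand): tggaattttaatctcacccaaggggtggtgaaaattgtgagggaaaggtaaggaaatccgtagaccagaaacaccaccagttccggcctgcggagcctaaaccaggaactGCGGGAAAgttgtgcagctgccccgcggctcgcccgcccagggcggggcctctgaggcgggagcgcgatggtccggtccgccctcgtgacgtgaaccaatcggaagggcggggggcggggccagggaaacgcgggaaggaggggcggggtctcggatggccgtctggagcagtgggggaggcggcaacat

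The Cdk4 promoter held the E-box letters 4 times, at positions -172, -118, -98 and -11 from the transcript start. The Cdk6 promoter held them once, at position -220, so 2 of the 6 promoters had a match, against 7.15% of all 32851 promoters in the table. The E2F letters were found in 1 of 6, that of Cdk2, as GCGGGAAA at position -140, against 2.26% of all promoters. Neither motif stands in the Ccne1 window. A match describes the letters and does not show binding.

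**Figure D1:**
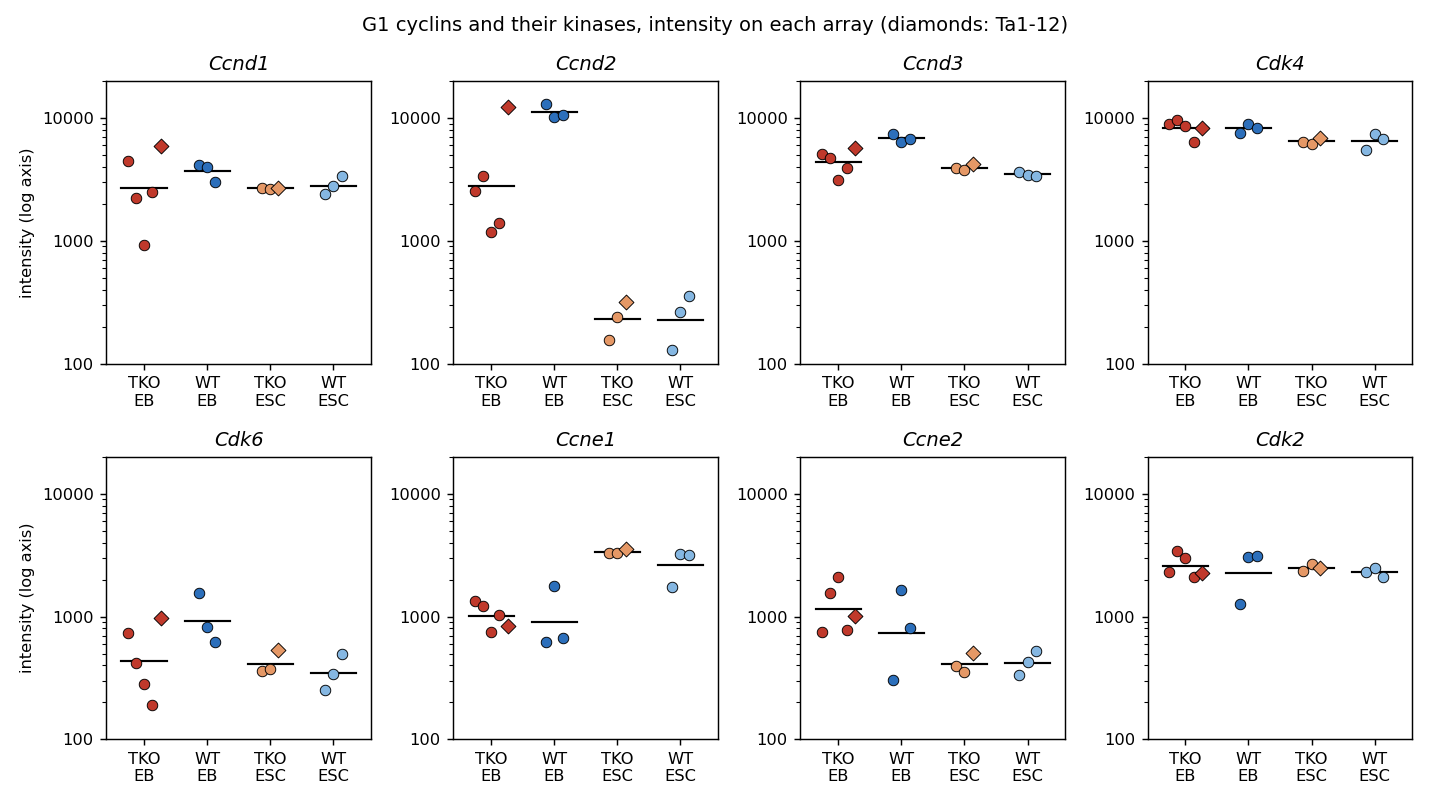
Intensity of each gene's probe set with the highest mean, on a log axis, for TKO EB, WT EB, TKO ESC and WT ESC. Each point is 1 array, diamonds are the arrays labelled Ta1-12, and the bar is the mean of the log2 values; Ccnd2 sits between 128.6 and 355.4 in all ESC and above 1179 in all EB.

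Across the stages, 4 of the 8 genes were called in TKO EB versus TKO ESC (limma, adjusted p under 0.05), where 35.7% of the 14365 genes tested were. They were Ccnd2, Ccne2 and Cdk4, higher (20.8% of all genes), and Ccne1, lower (14.9%). In WT EB versus WT ESC, 3 of the 8 were called, where 43.6% of all genes were: Ccnd2 and Ccnd3, higher (26.2%), and Ccne1, lower (17.4%). These counts lie near the background shares. With arrays centred on their medians, the calls over all genes split into 2564 higher and 2580 lower in TKO, against 2987 and 2145 as deposited, and into 2989 and 3274 in WT, against 3767 and 2493, and the TKO call of Cdk4 was lost (0.23, adjusted p = 0.21). Arrays did not overlap for Ccnd2 and Ccne2, higher (21.1% of all genes), and Ccne1, lower (14.6%), in TKO, and for Ccnd2, Ccnd3, Cdk4 and Cdk6, all higher (35.1%), in WT. The share of all genes called was 21.4% in TKO and 45.1% in WT without both arrays labelled Ta1-12, and 21.9% in TKO and 37.3% in WT with the cell line as a block. Intensities of different probe sets are on no common scale, so levels are compared within a gene only.

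Ccnd2, the D cyclin best known from developing and haematopoietic tissues, was low in ESC and high in EB. Its intensity was 2531.2, 3355.1, 1179.5 and 1384.9 in TKO EB 14-14-4, 2-55-2, 7-4-1 and Dutch and 12194.5 in the array labelled TKO EB Ta1-12. WT EB had 12982.7 (B21), 10229.4 (J1) and 10517.7 (R1), TKO ESC had 156.7, 239.4 and 320.7 (7-4-1, Dutch, Ta1-12), and WT ESC had 128.6, 262.0 and 355.4 (B21, J1, R1). Every EB array lay above every ESC array, and among TKO EB the array labelled Ta1-12 stood alone beside the WT EB values.

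Ccnd2 was 12.2-fold higher in TKO EB than in TKO ESC (log2 change 3.61 ± 0.62, SE, limma adjusted p = 0.00104) and 48.9-fold higher in WT EB than in WT ESC (5.61 ± 0.69, adjusted p = 0.0002). Without both arrays labelled Ta1-12, the rise in TKO was 9.96-fold (3.32 ± 0.47, adjusted p = 0.00151), and it was called without the Dutch arrays as well (3.78 ± 0.63, adjusted p = 0.0065). Mesenchymal marker genes such as Col1a1 moved with the stage, with a sum over 6 genes of 21786 to 95409 in TKO EB and 70025 to 92456 in WT EB, and of 163.3 to 263.3 in TKO ESC and 155.8 to 448.2 in WT ESC, with 2 to 3 of the 6 above the floor of 32 in TKO ESC and 2 to 5 in WT ESC. The part of this change in makeup in the results was not tested.

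All 7 probe sets of Ccnd2 moved in the same direction. Each was called higher in TKO EB versus TKO ESC, with log2 changes of 1.82 to 4.19, and in WT EB versus WT ESC, with changes of 4.29 to 6.21. In the fit on all probe sets, 18.1% of 31122 were called higher in TKO and 22.7% in WT, and 16.9% lower in TKO and 17.6% in WT. The 2 dimmest, 1416123_at and 1416124_at, lay at, under or near the floor of 32 in ESC, so their changes are understated. In each of the 7, the array labelled TKO EB Ta1-12 lay within or above WT EB and the 4 other TKO EB arrays below it.

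**Figure D2:**
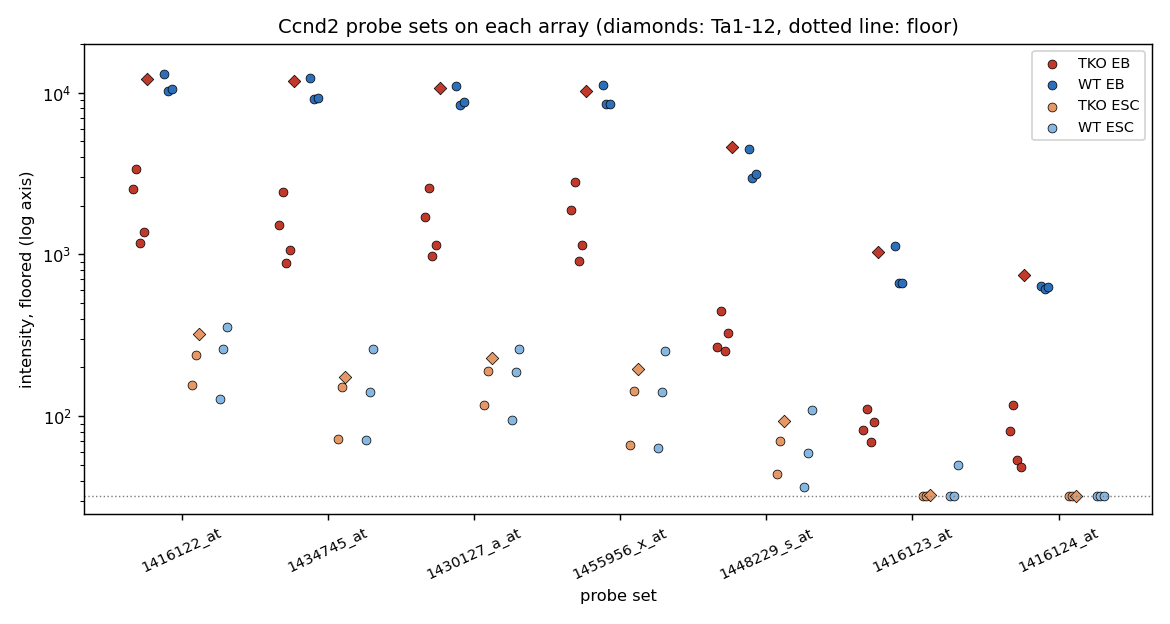
Intensity of the 7 Ccnd2 probe sets on each array, on a log axis, with values under the floor of 32 drawn at the floor (dotted line). Within each probe set the groups run TKO EB, WT EB, TKO ESC, WT ESC; the 4 TKO EB circles lie below all WT EB circles in every probe set, while the diamond (Ta1-12) lies beside them.

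Ccnd3, the most widely expressed D cyclin, moved with stage in WT lines. Its intensity was 5070.9, 4758.2, 3133.6 and 3905.9 in TKO EB 14-14-4, 2-55-2, 7-4-1 and Dutch and 5687.9 in the array labelled TKO EB Ta1-12, against 7361.4, 6423.9 and 6730.6 in WT EB. It was 3888.4, 3785.1 and 4196.4 in TKO ESC and 3656.7, 3449.5 and 3399.4 in WT ESC. WT EB lay above all other arrays, and TKO EB overlapped TKO ESC.

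The rise of Ccnd3 was 1.95-fold in WT EB versus WT ESC (log2 change 0.96 ± 0.18, limma adjusted p = 0.00139). In TKO EB versus TKO ESC the change was 0.16 ± 0.16 and was not called (adjusted p = 0.45, 95% interval -0.18 to 0.50). The difference between the 2 changes, TKO minus WT, was -0.80 ± 0.24 (adjusted p = 0.975). This was the one member with an unadjusted p under 0.05 for the difference, among 522 genes, and no gene was called (0%). Without both arrays labelled Ta1-12 the difference was -0.85 (adjusted p = 0.308). The WT rise was called in both tested probe sets (0.96 and 0.61). On the dimmer of them, 1444323_at, it passed narrowly (limma adjusted p = 0.0482), and WT EB R1 (93.2) lay within WT ESC (87.9 to 94.8). Without both arrays labelled Ta1-12 the WT rise was not called on it (adjusted p = 0.0583). The remaining probe set, 1438805_at, was too dim to be tested.

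Ccnd1, the D cyclin that responds to mitogens in many cells, was not called in any comparison. It had 4497.3, 2250.7, 926.8 and 2485.7 in TKO EB 14-14-4, 2-55-2, 7-4-1 and Dutch and 5895.0 in the array labelled TKO EB Ta1-12, against 4161.2, 3980.4 and 3031.8 in WT EB. TKO ESC lay at 2706.8, 2658.6 and 2689.4 and WT ESC at 2401.4, 2790.2 and 3344.1. TKO EB spread widely around the other groups, with an SD of 1.03 on the log2 scale, against 0.25 in WT EB, 0.01 in TKO ESC and 0.24 in WT ESC. The log2 change was -0.004 ± 0.44 in TKO EB versus TKO ESC (limma adjusted p = 0.994) and 0.39 ± 0.49 in WT EB versus WT ESC (adjusted p = 0.541). One of its 3 probe sets, 1417419_at, gave -0.94 ± 0.51 in TKO EB versus TKO ESC (adjusted p = 0.167), where the other 2 gave values near 0.

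Cdk4, a partner kinase of the D cyclins, changed little with stage. It was 8982.7, 9712.2, 8577.7 and 6398.3 in TKO EB 14-14-4, 2-55-2, 7-4-1 and Dutch and 8279.5 in the array labelled TKO EB Ta1-12, against 7571.3, 8976.9 and 8292.5 in WT EB. TKO ESC had 6397.3, 6147.8 and 6912.3, and WT ESC had 5496.7, 7429.3 and 6803.8. WT EB lay above WT ESC on all arrays, and TKO EB Dutch overlapped TKO ESC.

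Cdk4 rose 1.28-fold in TKO EB versus TKO ESC (0.36 ± 0.13, limma adjusted p = 0.0479), and the WT change of 0.34 ± 0.15 was not called (adjusted p = 0.0759). With the cell line as a block the calls changed places, at 0.25 (adjusted p = 0.121) in TKO and 0.34 (adjusted p = 0.0388) in WT. Without both arrays labelled Ta1-12 the TKO value was 0.41 and was not called (adjusted p = 0.101). The TKO call was lost under 20 alternatives in all, among them without the Ta1-12 and Dutch arrays (0.51, adjusted p = 0.0745), and the 3 Cdk4 probe sets were called higher in TKO, while 1 of the 3 was in WT. Probe sets named _x_at, such as those standing for Cdk4 and Ccne1, hold probes that can match other transcripts.

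Cdk6, the other D cyclin kinase, was not called between the stages. Its intensity was 732.5, 420.1, 283.6 and 189.4 in TKO EB 14-14-4, 2-55-2, 7-4-1 and Dutch and 978.9 in the array labelled TKO EB Ta1-12, against 1561.8, 816.0 and 619.2 in WT EB. TKO ESC had 357.2, 375.8 and 529.4, and WT ESC had 250.8, 342.1 and 496.1. WT EB lay above WT ESC on all arrays, and TKO EB spanned TKO ESC on both sides. The log2 change was 0.08 ± 0.49 in TKO EB versus TKO ESC (limma adjusted p = 0.911) and 1.40 ± 0.55 in WT EB versus WT ESC (adjusted p = 0.0533). The WT value missed the threshold narrowly and passed it under 9 alternatives, among them without both arrays labelled Ta1-12 (adjusted p = 0.0365).

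**Figure D3:**
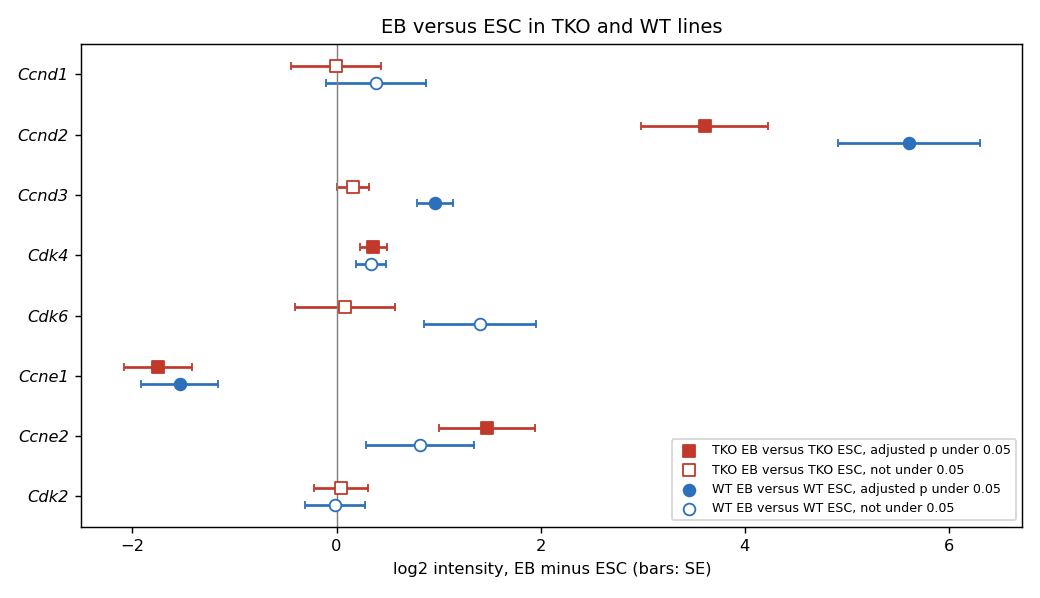
Log2 change of each gene in TKO EB versus TKO ESC (squares) and WT EB versus WT ESC (circles), with standard errors from limma as bars. Filled symbols passed an adjusted p of 0.05; Ccnd2 is highest in both genotypes and Ccne1 lies below 0 in both.

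Ccne1, the first E cyclin, was high in ESC and fell in EB in both genotypes. It had 1346.3, 1212.5, 742.3 and 1024.3 in TKO EB 14-14-4, 2-55-2, 7-4-1 and Dutch and 832.2 in the array labelled TKO EB Ta1-12, against 617.4, 1763.0 and 671.0 in WT EB. TKO ESC had 3292.9, 3311.8 and 3534.2, and WT ESC had 1743.1, 3255.0 and 3153.3. All TKO EB arrays lay below all TKO ESC arrays, and among WT the EB array J1 lay just above the ESC array B21.

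Ccne1 fell by 1.75 ± 0.33 on the log2 scale in TKO EB versus TKO ESC (limma adjusted p = 0.00202) and by 1.54 ± 0.37 in WT EB versus WT ESC (adjusted p = 0.00615). Without both arrays labelled Ta1-12 it fell by 1.65 in TKO (adjusted p = 0.0209). Without the Dutch arrays too, with 1 TKO ESC array left, the change was -1.63 ± 0.62 and was not called (adjusted p = 0.103). The difference between the changes, TKO minus WT, was -0.21 ± 0.50 (adjusted p = 0.981, 95% interval -1.29 to 0.88). Both probe sets of Ccne1 were lower in both genotypes.

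Ccne2, the second E cyclin and a known E2F target, was called higher in TKO EB than in TKO ESC. It had 742.0, 1565.7, 2088.0 and 783.4 in TKO EB 14-14-4, 2-55-2, 7-4-1 and Dutch and 1020.1 in the array labelled TKO EB Ta1-12, against 304.4, 1654.8 and 800.0 in WT EB. TKO ESC had 392.5, 352.4 and 501.3, and WT ESC had 333.1, 425.1 and 523.2. TKO EB lay above TKO ESC throughout, whereas WT EB B21 fell below all WT ESC.

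Ccne2 rose 2.78-fold in TKO EB versus TKO ESC (1.47 ± 0.47, limma adjusted p = 0.0283) and was not called in WT EB versus WT ESC (0.81 ± 0.53, adjusted p = 0.225). With the cell line as a block the TKO value was 1.53 and missed the threshold (adjusted p = 0.0524), and without both arrays labelled Ta1-12 it was 1.66 (adjusted p = 0.0705). The call was also lost without any one of TKO EB 2-55-2, TKO EB 7-4-1 or each TKO ESC array in turn. Without the Ta1-12 and Dutch arrays it was 1.78 ± 0.84 (adjusted p = 0.176). Over these 8 alternatives the value was 1.26 to 1.78. Without WT EB B21, the WT change became 1.45 and passed. The difference between the genotypes was 0.66 ± 0.71 (adjusted p = 0.975).

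Cdk2, the kinase of the E cyclins, was not called in any comparison. It had 2325.0, 3409.6, 3021.9 and 2080.7 in TKO EB 14-14-4, 2-55-2, 7-4-1 and Dutch and 2241.6 in the array labelled TKO EB Ta1-12, against 1253.8, 3039.2 and 3090.6 in WT EB. TKO ESC had 2341.4, 2664.7 and 2486.8, and WT ESC had 2311.5, 2504.0 and 2104.9. The groups overlapped in each comparison. The log2 change was 0.04 ± 0.27 in TKO EB versus TKO ESC (95% interval -0.53 to 0.62) and -0.02 ± 0.30 in WT EB versus WT ESC (-0.66 to 0.63). WT EB B21 was the lowest array, and without it the WT change was 0.41.

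The 6 lines measured at both stages give a change within each line. The log2 change of Ccnd2 from the same line's ESC was 2.91, 2.53 and 5.25 in TKO 7-4-1, Dutch and Ta1-12, against 6.66, 5.29 and 4.89 in WT B21, J1 and R1. Ccnd3 changed by -0.31, 0.05 and 0.44 in the TKO lines, against 1.01, 0.90 and 0.99 in the WT lines. Ccne1 was lower in EB in all 6 lines, with changes of -2.15, -1.69 and -2.09 in TKO and of -1.497, -0.885 and -2.23 in WT. Cdk6 changed by -0.33, -0.99 and 0.89 in TKO, against 2.64, 1.25 and 0.32 in WT. The TKO Ta1-12 value lay within the WT values for Ccnd2 and Cdk6 and below them for Ccnd3.

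**Figure D4:**
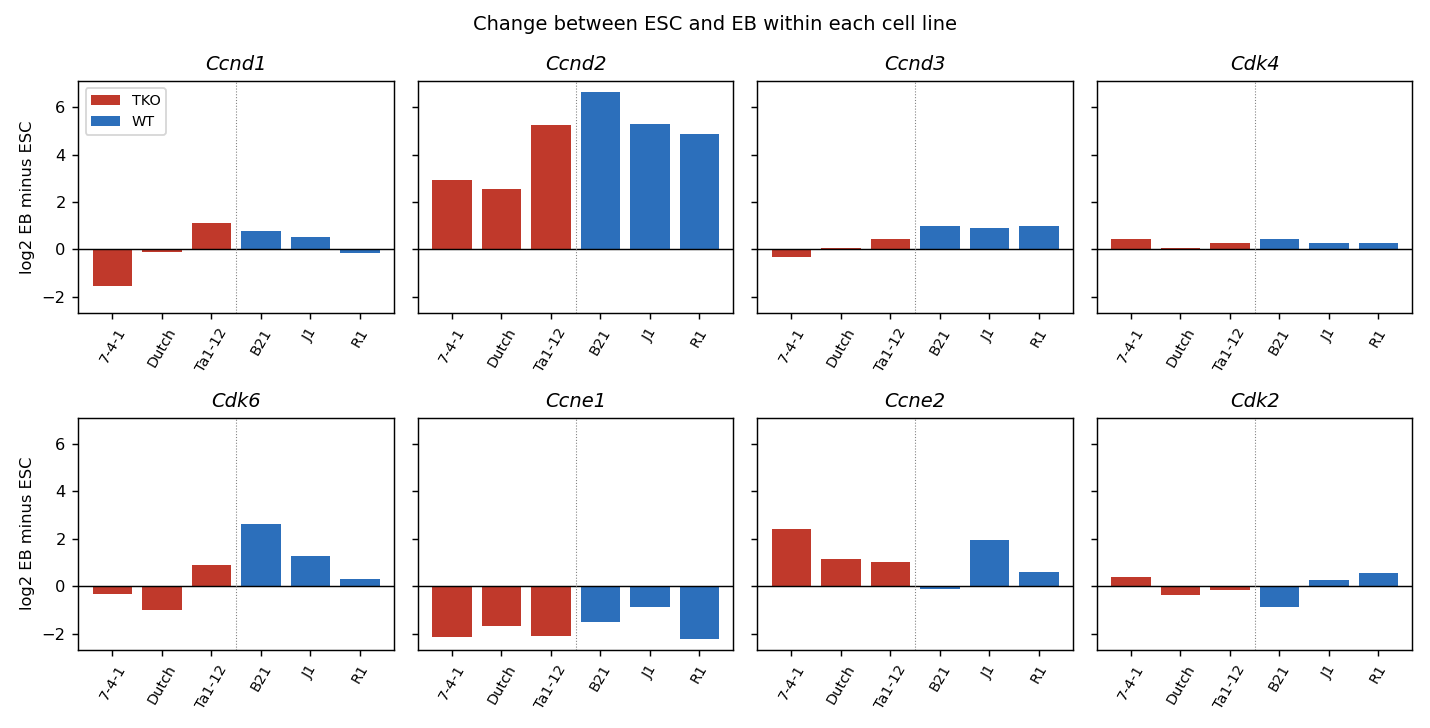
Change of log2 intensity between ESC and EB within each cell line, TKO lines left and WT lines right of the dotted line in each panel. Bars start at 0; for Ccnd2 the TKO lines 7-4-1 and Dutch reach 2.91 and 2.53, and the other 4 lines reach 4.89 or more.

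TKO EB were then compared with WT EB. None of the 8 genes was called with all 5 TKO EB arrays (limma), and neither was any other gene, at 0% of 14365, with 2034 genes and 3 of the 8 at an unadjusted p under 0.05. The largest differences were those of Ccnd2 (-2.002 ± 0.62) and Cdk6 (-1.08 ± 0.49), with limma adjusted p of 0.303 and 0.351, and Ccnd3 (-0.63 ± 0.16) also had 0.303. Ccnd3 was the only one of the 8 whose arrays did not overlap, lower in all 5 TKO EB arrays, where 3.05% of all genes were. Without the array labelled Ta1-12, Ccnd2 and Ccnd3 lay below WT EB on every array, where 13.6% of all genes did. Ccnd1 gave -0.46 ± 0.44, Ccne2 0.63 ± 0.47, Cdk2 0.17 ± 0.27, Ccne1 0.16 ± 0.33 and Cdk4 0.01 ± 0.13.

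Without the array labelled TKO EB Ta1-12, Ccnd2 and Ccnd3 were called lower. Ccnd2 differed by -2.53 ± 0.42, which is 5.79-fold lower in TKO EB (limma adjusted p = 0.00507), and Ccnd3 by -0.72 ± 0.14, which is 1.65-fold lower (adjusted p = 0.011). With both arrays labelled Ta1-12 left out, the values stayed at -2.53 and -0.72, with adjusted p of 0.00944 and 0.0191. Without the Dutch arrays as well, which leaves TKO EB 14-14-4, 2-55-2 and 7-4-1, Ccnd2 was called lower (-2.38 ± 0.45, adjusted p = 0.0322) and Ccnd3 was not (-0.69 ± 0.17, adjusted p = 0.0642), where 3.33% of all genes were called. The share of all genes called was 9.9% without that array (6.56% lower) and 7.66% without both (4.96% lower). Cdk6 was lower by 1.37 on the log2 scale and was not called (adjusted p = 0.0719 without the one array). Ccnd1, Cdk4, Ccne1, Ccne2 and Cdk2 were not called.

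In the fit on all probe sets without both arrays labelled Ta1-12, all 7 Ccnd2 probe sets were called lower in TKO EB, with log2 differences of -3.46 to -2.53, where 3.79% of all probe sets were. Of the tested Ccnd3 probe sets, 1 of 2 was called. In the same fit, the difference of the EB versus ESC change, TKO minus WT, was called for 1416123_at and 1416124_at, where 0.0257% of all probe sets were called lower. These are the 2 held at or near the floor in ESC; for 1416124_at all ESC values are the floor, so its difference (-3.15) is that of TKO EB minus WT EB. The 5 brighter probe sets were not called (adjusted p = 0.115 to 0.445). For the gene's own probe set, in the fit on genes, it was -2.29 ± 0.64 (adjusted p = 0.317). In the fit with all arrays that difference was -2.004 ± 0.93 for Ccnd2 (adjusted p = 0.975).

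**Figure D5:**
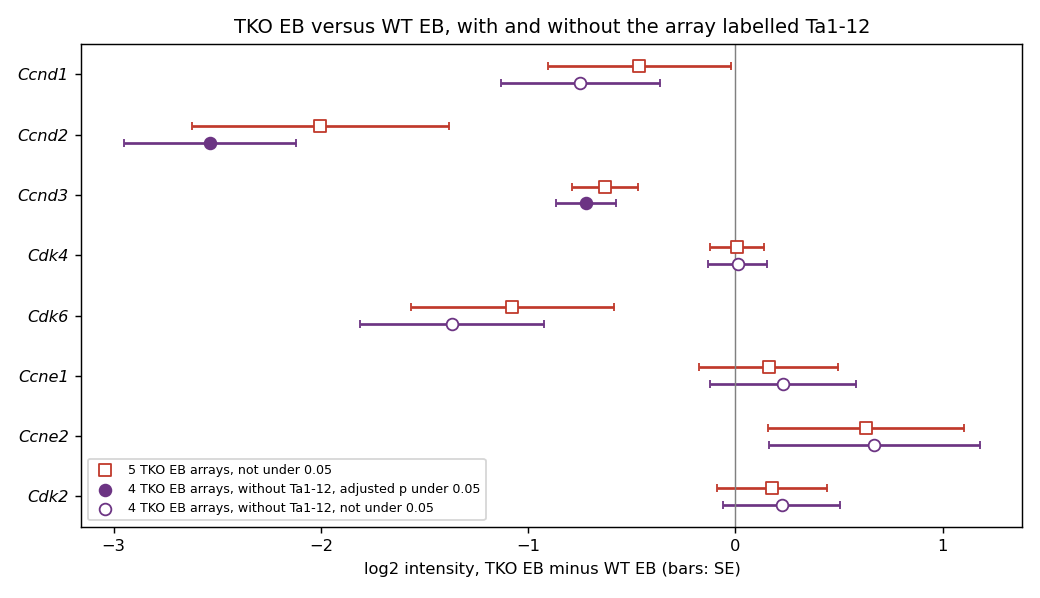
Log2 difference of TKO EB minus WT EB for each gene, with all 5 TKO EB arrays (squares) and with 4, leaving out the array labelled Ta1-12 (circles); bars are standard errors from limma. Filled symbols passed an adjusted p of 0.05, which only Ccnd2 and Ccnd3 did, without Ta1-12.

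Marker values stood beside this result as follows. The 4 TKO EB arrays with low Ccnd2 had proliferation marker sums of 30706 to 37940, above all WT EB (9151 to 20914) and above the array labelled TKO EB Ta1-12 (11158). Pou5f1 was 6132.8, 1542.2, 146.8 and 7410.3 in TKO EB 14-14-4, 2-55-2, 7-4-1 and Dutch and 17.1 in the array labelled TKO EB Ta1-12, against 32.8 to 55.2 in WT EB. Lyz1, a macrophage lysozyme, was 3573.2, 2192.6, 774.6 and 29.2 in those 4 arrays and 6858.0 in the array labelled TKO EB Ta1-12, while WT EB had 8219.4 to 14667.4. Lyz2 and Ptprc were also lower in those 4 arrays than in all WT EB, whereas Csf1r, Hbb-bh1 and Hba-x overlapped. Of the 6 blood genes, 2 to 6 were above the floor in TKO EB arrays and 4 to 6 in WT EB arrays. Ttr, a transport protein of yolk sac and liver, was 2713.0, 3811.4, 2369.4 and 6226.6 in those 4 arrays and 15111.6 in the array labelled TKO EB Ta1-12, while WT EB had 7226.3 to 12433.2. The other endoderm genes, Afp, Gata4, Gata6, Foxa2 and Sox17, overlapped between those 4 arrays and WT EB. Sox17, for one, was 536.7 to 1051.6 in the 4 arrays and 274.6 to 9813.7 in WT EB. The sum of 6 endoderm genes, all above the floor in EB, was 7726 to 16833 in the 4 arrays. It was 44463 in the array labelled TKO EB Ta1-12, while WT EB had 16801 to 51519. The part of these markers in the D cyclin differences was not tested.

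In ESC, none of the 8 was called in TKO ESC versus WT ESC (limma), as for all 14365 genes (0%). The same held without both arrays labelled Ta1-12. With all arrays, 394 genes but none of the 8 had an unadjusted p under 0.05. The 0% depends on the setting. With limma array weights, where arrays count unequally (WT ESC J1 most, at 7.584), 697 of all genes were called, 153 higher and 544 lower. The log2 differences ran between -0.07 for Ccnd1 and 0.37 for Ccne1. Arrays did not overlap for Ccnd3 and Ccne1, both higher in TKO ESC, where 4.64% of all genes were. For Ccne1 the gap was narrow, from 3255.0 in WT ESC J1 to 3292.9 in TKO ESC 7-4-1. The other Ccne1 probe set, 1416492_at, overlapped, at 3126.5 to 3697.6 in TKO ESC and 1816.1 to 3297.6 in WT ESC. With 3 arrays a group the precision was limited, as for Ccnd2, whose difference was 0.002 ± 0.69.

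Across the 14 arrays, the levels of some members ran together, which is a description over arrays that share stage and genotype. Ccnd2 and Ccnd3 had r = 0.855 (14 arrays) and Ccnd3 and Cdk6 r = 0.82, while Ccnd2 and Ccne1 had r = -0.786. Cdk4 and Ccne2 had r = 0.761, and Cdk2 was nearest to Ccne2 with r = 0.621. In TKO EB the array labelled Ta1-12 was the highest for 4 of the 8 genes (Ccnd1, Ccnd2, Ccnd3 and Cdk6), and 7-4-1 was the lowest for 4 (Ccnd1, Ccnd2, Ccnd3 and Ccne1) and the highest for Ccne2.

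Of the other tested genes, apart from sex-linked genes and those known by a clone name, the ones with the highest Pearson r of log2 values over the 14 arrays were named for each member. For Ccnd2 they were Cdc42ep1, Fads3 and Spcs1 (r = 0.981, 0.98 and 0.978). For Ccnd3 they were Neu3, Ncf4 and Clec4n, with r = 0.944, 0.944 and 0.94. Ncf4 encodes a subunit of the phagocyte NADPH oxidase and Clec4n the C-type lectin Dectin-2. For Ccne1 they were Apex1, a base excision repair enzyme, Ppm1g and Plk5, with r = 0.961, 0.949 and 0.936. Capg (r = 0.96) was nearest to Ccnd1, Pygo2 (0.919) to Cdk4, Ccnl1 (0.939) to Cdk6, Fnbp1l (0.921) to Ccne2 and Hnrnpm (0.879) to Cdk2.

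The CDK inhibitors, which bind and block these complexes, rose together. Of 7 genes, 6 were called higher in TKO EB versus TKO ESC (20.8% of all genes) and 7 in WT EB versus WT ESC (26.2%), with a median log2 change of 2.16 in TKO and 2.22 in WT, against 0.08 and 0.13 over all genes. Cdkn1a, which encodes p21, had 6625.0 to 11332.3 in TKO EB and 8937.5 to 10929.8 in WT EB, against 1460.3 to 2727.5 in TKO ESC and 2016.6 to 3023.8 in WT ESC. Its log2 change was 2.16 ± 0.21 in TKO (limma adjusted p = 4.33e-05) and 2.02 ± 0.24 in WT (0.000171). Cdkn1c, encoding p57, rose by 4.36 ± 0.57 in TKO and 3.08 ± 0.63 in WT, and Cdkn2c, encoding p18, rose by 4.07 ± 0.54 and 3.51 ± 0.61. Cdkn1b, encoding p27, rose by 2.12 ± 0.34 in TKO and 1.57 ± 0.38 in WT. Without both arrays labelled Ta1-12, 6 of the 7 were called higher in TKO too. The TKO changes were then 1.88 for Cdkn1a, 4.84 for Cdkn1c, 4.41 for Cdkn2c and 2.38 for Cdkn1b, all called. None of the 7 was called in TKO EB versus WT EB, with or without the arrays labelled Ta1-12.

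Of 8 genes that act in S phase after the G1 step, 0 were called in TKO EB versus TKO ESC, with or without both arrays labelled Ta1-12. In WT EB versus WT ESC, 4 were called lower (17.4% of all genes), or 6 without those 2 arrays. With all arrays the medians were -0.18 in TKO and -0.85 in WT. Mcm5, a subunit of the replicative helicase, had 8408.7, 9820.5, 10256.3 and 9449.6 in TKO EB 14-14-4, 2-55-2, 7-4-1 and Dutch and 4439.2 in the array labelled TKO EB Ta1-12, against 3060.6 to 6709.4 in WT EB. Without both arrays labelled Ta1-12, 6 of the 8 were called higher in TKO EB versus WT EB, among them Mcm5 (1.02 ± 0.20, limma adjusted p = 0.017), Mcm2 (0.84 ± 0.18) and Cdt1 (0.91 ± 0.21), against 0 of 8 with them. In that setting 2.7% of all genes were called higher. Without the Dutch arrays as well, Mcm5, Mcm2 and Cdt1 were not called.

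The counts for the remaining partners stand against 20.8% of all genes called higher and 14.9% lower in TKO EB versus TKO ESC, and 26.2% higher and 17.4% lower in WT EB versus WT ESC. Of 10 E2F and DP factors, 2 were called higher and 1 lower in TKO, or 1 and 1 without both arrays labelled Ta1-12, and 1 higher and 2 lower in WT, or 1 and 3 without those TKO arrays, which enter the WT comparison through the shared spread. E2f4, a repressor bound by p107 and p130, fell by 1.41 ± 0.17 in TKO and 1.03 ± 0.19 in WT, and E2f6, a repressor that does not bind pocket proteins, rose by 1.02 ± 0.22 and 0.88 ± 0.24. Both were called without the Ta1-12 arrays too, and E2f1, called higher in TKO (0.49 ± 0.17), was not (adjusted p = 0.115). Of the 10 mitogen-side regulators, 4 were called higher and 3 lower in TKO, or 3 and 3 without the Ta1-12 arrays, and 4 and 3 in WT. Among them were the AP-1 subunits Jun (4.54 ± 0.56 in TKO, 3.72 ± 0.62 in WT) and Fos (3.64 ± 0.60 in TKO, 3.82 ± 0.67 in WT), and the ETS factor Etv4, which fell by 3.81 ± 0.57 in TKO and 2.90 ± 0.64 in WT; these 3 were called without the Ta1-12 arrays too.

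Of the 6 genes that activate the kinases, Cdk7 was called lower in TKO (-0.45 ± 0.15) and Cdc25a and Cks2 in WT, and without both arrays labelled Ta1-12 none was in TKO (Cdk7 -0.47 ± 0.17, limma adjusted p = 0.0672). Of 6 turnover genes, 2 were called lower in TKO, or 0 without the Ta1-12 arrays, and 1 higher and 1 lower in WT. Rbl2 was called higher in WT (1.26 ± 0.47), and none of the 3 pocket protein genes was called in TKO, with or without the Ta1-12 arrays. The inhibitory kinase gene Wee1 was called lower in WT (-0.55 ± 0.19) but not in TKO (0.14 ± 0.17). Pkmyt1 was called in neither (WT -1.08 ± 0.51, limma adjusted p = 0.101). Without both arrays labelled Ta1-12, Pkmyt1 was called lower in WT (-1.08 ± 0.33, adjusted p = 0.0201), and so was Wee1. In TKO EB versus WT EB without the Ta1-12 arrays, 2.7% of all genes were called higher and 4.96% lower. Wee1 (0.82 ± 0.18) and Pkmyt1 (1.72 ± 0.31) were called higher there, with limma adjusted p of 0.0245 and 0.0119. Cks2 was called higher too (0.72 ± 0.15, adjusted p = 0.0204), and Rbl2 lower (-1.61 ± 0.38, adjusted p = 0.0309). Also called were 2 of the 10 E2F and DP factors, higher, and 1 of the 10 mitogen-side regulators, lower. With all arrays none of these was called. Without the Dutch arrays as well, Pkmyt1 was called and Wee1 and Rbl2 were not. Rbl1, whose signal was the ground for leaving arrays out, differed by -2.63 ± 1.17 with all arrays (adjusted p = 0.345).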

How the data were processed

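Total RNA was labelled with biotin and hybridised to Affymetrix mouse arrays, per the labels' protocols. The values are linear intensity values as deposited, from 0.596 to 25702 on 14 arrays of 45101 probe sets; how the authors summarised and scaled them was not stated (not given in the sources used here). Array medians were 83.2 to 107.9, a range of 0.374 on the log2 scale, so no further centring was applied. Values under 32 were raised to 32 and log2 was taken of the deposited intensity. The probe set with the highest mean stood for a gene. Of the probe sets, 34958 had 1 gene symbol, 932 several and 9211 none; 34754 were matched by Entrez identifier to RefSeq GRCm38.p6 and 0 changed. A gene was tested where 3 or more arrays put it over their own 40th percentile (14365 genes, 31122 probe sets; 21 of the 24 described). limma 3.58.1 in R 4.3.3 fitted 1 mean per group over all 14 arrays (lmFit, contrasts, eBayes with trend), with Benjamini-Hochberg adjustment over all genes in each of 5 comparisons, two-sided, at 0.05. All adjusted p-values and standard errors are limma's. A separate fit used all probe sets.

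The line names pair the ESC and EB arrays of 6 lines. Deviations from the group means correlated between the arrays of a line at -0.046 (B21), -0.078 (J1), -0.037 (R1), 0.066 (7-4-1), 0.196 (Dutch) and 0.09 (Ta1-12), and a fit with the line as a block was an alternative. Other alternatives were floors of 16 and 64, other scalings, filters, probe set averages, array weights and leaving out arrays. Leaving out the arrays labelled Ta1-12 rested on their Rbl1 signal in these same data. Leaving out all TKO Ta1-12 and TKO Dutch arrays was chosen after seeing the data and leaves 1 TKO ESC array, assumed to vary like the other groups. The fit was tested on simulated data. Named are all 8 members and up to 4 genes of each partner list with the smallest adjusted p. The members, lists and markers were chosen with earlier results of these data known. Skp1a and Ccnb1 were not matched by symbol.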

Additional observations from a re-analysis of the deposited data

Results flagged for a closer look

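Ccnd2 in the array labelled TKO EB Ta1-12, at 12194.5, was far above the 4 other TKO EB arrays (1179.5 to 3355.1) on the intensity scale. Its gap to the nearest of them was 0.802 of the whole range of the group, above the 95% limit of Dixon's test for 5 samples. It did not pass on the log2 scale, and 16 such tests were made (8 genes on 2 scales), of which about 1 in 20 passes by chance. The value lay within WT EB (10229.4 to 12982.7). Rbl1 in the same array, at 1095.9, lay just above the highest WT EB array (1089.6). Rb1 in that array, at 300.5, lay below all WT EB arrays (407.1 to 1018.4). The cause was not tested.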

How the results depend on the processing

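In TKO EB versus TKO ESC, 2 genes were called in place of 4 with the cell line as a replicate block and without both arrays labelled Ta1-12, as Cdk4 and Ccne2 were lost, and 2 to 4 when each array was left out in turn, with 2 without TKO EB 2-55-2, TKO EB 7-4-1 or any one TKO ESC array. In TKO EB versus WT EB, 2 genes were called in place of 0 without both arrays labelled Ta1-12 and 0 to 2 over single arrays left out. In WT EB versus WT ESC, 5 genes were called in place of 3 without TKO EB Dutch and TKO EB 14-14-4, as Cdk4 and Cdk6 were added, and 3 to 5 over single arrays, with 5 without TKO EB Dutch. These TKO arrays enter the WT comparison only through the shared estimate of the spread. Without all arrays labelled TKO Ta1-12 or TKO Dutch, 1 gene was called in TKO EB versus TKO ESC (Ccnd2), 1 in TKO EB versus WT EB (Ccnd2) and 5 in WT EB versus WT ESC; TKO ESC then holds 1 array. Cdk7 in TKO EB versus TKO ESC was 0.295 with the mean of all probe sets, -0.452 as reported and -0.581 to -0.392 under the other alternatives; the cause was not tested. The replicate block changed 1 further call, Cdk4 in WT EB versus WT ESC. Over the 8 genes, 1084 of 1136 values kept their call and direction, 29 lost the call, 19 gained it and 4 moved without a call.

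Centring the arrays moved the median change over all genes to -0.07 in WT EB versus WT ESC, against 0.13, and in TKO EB versus TKO ESC to -0.04, against 0.08. No called member changed sign. The number of arrays limits the precision.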
